A study of Homo sapiens with 6 samples.

Results

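Lysosomal hydrolases and membrane proteins are described here across RNA sequencing libraries of A549, an established human line from a non-small-cell lung tumour, with and without knockdown of the forkhead transcription factor FOXD3. The set holds 46 genes of 17789 gene symbols in the files. They were chosen by name, with earlier results of these data known. All 46 were listed in the files and passed the filter of a mean of at least 0.5 FPKM. FPKM is a fragment count scaled by transcript length and by library size, so levels can be compared between genes. For the description the genes were divided by role into 10 peptidases (cathepsins and their partners), 16 glycosidases and sulfatases, 8 proteins of lipid hydrolysis and transfer, 9 membrane proteins, and 3 others (ACP2, GRN and TFEB).

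There were 3 control libraries, labelled wild type, and 3 FOXD3 knockdown libraries. Both groups were A549 cells in serum-supplemented MEM with glutamine, penicillin and streptomycin. The knockdown used FoxD3 SMART pool, a mixture of small interfering RNA duplexes, delivered by lipid transfection and examined 72 h later. The labels' protocols leave the treatment of the control wells unstated, and nothing in them ties the replicates to separate cultures. The p-values therefore measure the spread between these libraries alone, and that spread may be technical. FOXD3 itself stood at 0.152, 0.291 and 0.134 FPKM in the control libraries, at 0.0749 FPKM in knockdown replicate 2, and was not listed in the other two (exact two-sided permutation test p = 0.1, the smallest that 3 against 3 allows). Depth was estimated at 6590000 to 7380000 fragments per library. That estimate is rough, because the values behind it were limited to a narrow range beforehand. On it the FOXD3 level stands for very few fragments, and the size of the reduction was not measurable. Epithelial markers were abundant, with 8 of 8 above 5 FPKM. Alveolar type 2 markers were not, with 0 of 8 above 5 FPKM and SFTPB not listed. Across genes, which are not independent replicates, Pearson correlations were 0.9738 to 0.9825 within groups and 0.932 to 0.9435 for pairs from different groups.

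The lysosome is the acidic compartment in which cells break down proteins, glycans, lipids and nucleic acids. Its soluble hydrolases are made in the endoplasmic reticulum, tagged with mannose 6-phosphate in the Golgi and carried by receptors to endosomes, while heavily glycosylated membrane proteins line the limiting membrane and transporters export the products. Many of these genes are targets of TFEB and its relatives TFE3 and MITF, which bind a motif built around the letters CACGTG, and loss of single hydrolases causes the lysosomal storage diseases.

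Because this motif is the sequence feature most closely tied to lysosomal genes, the promoters were searched for it. RefSeq promoters on GRCh38.p14, from 250 bases before to 50 bases after the annotated start, were matched for 34 of the 46 genes. The letters CACGTG, which read the same on both strands, were found in 9 of these 34 (26.5%), against 7.43% of 27305 promoters of all genes and 10.1% of the 10364 promoters matched to genes tested here. The longer palindrome TCACGTGA, which contains CACGTG, was found in 6 of the 34 (17.6%), against 1.04% of all promoters and 1.97% of those matched to genes tested here. A match is only a description of the letters in this window. Of the 20 matched genes that were lower in the knockdown libraries 3 held CACGTG (GAA, LAMP1 and NEU1), and of the other 14 matched genes 6 held it (CD63, CLN3, CTSA, CTSD, GALNS and MCOLN1). The stretches below are shown because they hold the motif (in capitals) in genes whose transcripts did and did not change. GAA lies at chr17:80101485-80101575 (+), with sites ending 71 and 26 bases before the start, and LAMP1 at chr13:113297027-113297122 (+), with 4 sites ending 187 to 137 bases before it. The whole LAMP1 window held 6 CACGTG sites, of which 2 were TCACGTGA. Both of these lie outside the stretch printed. MCOLN1 lies at chr19:7522563-7522623 (+), CTSA at chr20:45891273-45891334 (+) and CTSD at chr11:1763949-1763994 (-).
GAA: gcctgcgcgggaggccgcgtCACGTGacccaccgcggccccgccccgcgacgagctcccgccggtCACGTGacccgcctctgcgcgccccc
LAMP1: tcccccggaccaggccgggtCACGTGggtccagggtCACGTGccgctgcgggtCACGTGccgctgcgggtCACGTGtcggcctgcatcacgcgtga
MCOLN1: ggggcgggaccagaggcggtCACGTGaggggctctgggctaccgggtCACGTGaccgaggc
CTSA: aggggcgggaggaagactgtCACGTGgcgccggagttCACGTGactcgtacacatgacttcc
CTSD: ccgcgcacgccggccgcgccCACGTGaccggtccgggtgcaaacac

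The comparison of knockdown with control asked which lysosomal transcripts differed after the FOXD3 knockdown. Most of those that changed fell, among them 11 of 16 glycosidases and sulfatases and 6 of 8 lipid-handling proteins, while the abundant cathepsins CTSD, CTSB, CTSZ and CTSA did not pass the test. GAA, ARSA, FUCA1, GM2A and MAN2B1 fell to between 1.89- and 2.46-fold lower mean FPKM, and CTSS fell 4.1-fold. GLA and CTSC went the other way, 2.68- and 1.95-fold higher. By limma on log2(FPKM + 1) with Benjamini-Hochberg adjustment over all 13340 genes tested and a threshold of 0.05, 28 of the 46 genes (60.9%) were lower and 4 higher in the knockdown libraries. Over all genes tested 63.5% passed, 37.9% lower and 25.6% higher, so the share of lysosomal genes that passed in either direction, 69.6%, was near that background, and the lower calls were more frequent than over all genes. The libraries of the 2 groups did not overlap in 32 of the 46 genes (69.6%), against 69.1% of all genes tested. Every knockdown library lay below every control library in 28 (60.9%), against 40.8%. No test of the list as a whole was made. Falls of at least 0.5 on the log2 scale were called in 19 of the 46 genes (41.3%), against 20.8% of all genes tested, and rises of that size in 3, against 10.7% of all genes. In bulk RNA, fewer cells of a type and less RNA per cell cannot be told apart.

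**Figure D1:**
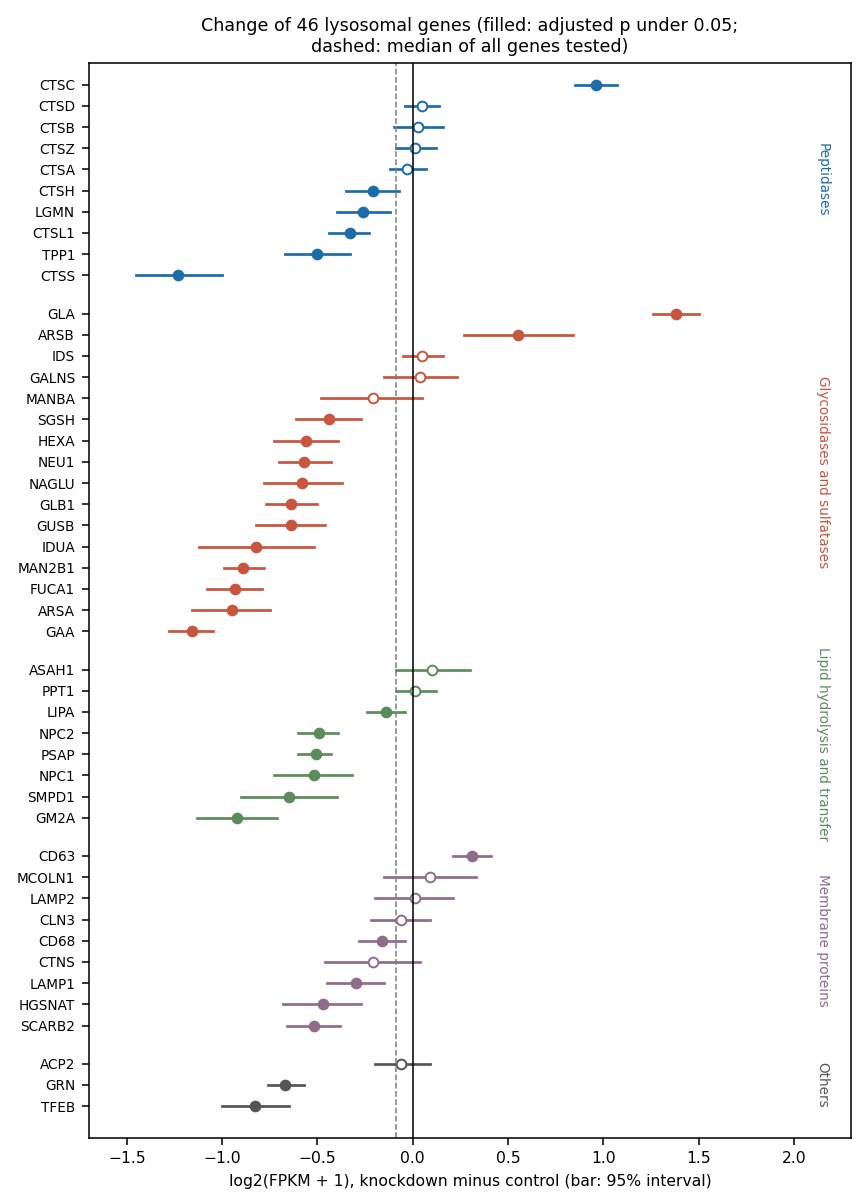
Log2 change (x axis; difference of mean log2(FPKM + 1), knockdown less control) of each of the 46 genes, grouped by role; points are limma estimates from 3 against 3 libraries, bars are 95% intervals, filled points passed the adjusted threshold and the dashed line is the median of all genes tested. The changes run from -1.23 (CTSS) to 1.38 (GLA), and 28 of the 32 filled points lie left of 0.

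The median log2 change of the 46 genes was -0.32 and that of all genes tested -0.087. The second value depends on scaling: it was 0.025 after quantile normalization, where the lysosomal median was -0.32, and -0.014 after scaling each library to 1 median, where it was -0.23. The lysosomal counts were 29 lower and 4 higher after quantile normalization and 25 lower and 6 higher after median scaling. Of all genes tested 29.3% were lower after quantile normalization and 32.3% after median scaling. The share of all calls that were higher moved from 40.4% to 52.4% and 49% in these settings. The 46 genes together summed to 3187, 3073 and 3113 FPKM in the control libraries and 2815, 2795 and 2833 FPKM in the knockdown libraries. Every knockdown sum lay below every control sum. The class sums did not all share this direction. The peptidases summed to 777.3, 754.5 and 755.8 FPKM in control and 843.1, 837.2 and 830.4 FPKM in knockdown libraries, so each knockdown sum was higher. CTSC alone carried this, with a mean of 96.9 FPKM in control and 189 FPKM in knockdown libraries. The other peptidases together had a lower mean sum in knockdown libraries. The membrane protein sums overlapped, at 677.1 to 727.2 FPKM in control and 725.4 to 734.4 FPKM in knockdown libraries. CD63 held much of these sums, with a mean of 348 FPKM in control and 431 FPKM in knockdown libraries. The other membrane proteins together had a lower mean sum in knockdown libraries. PSAP, NPC2, CD63 and CTSD were the most abundant contributors.

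The 10 peptidases split in both directions, with 5 lower, 1 higher and 4 that did not pass, and a median log2 change of -0.12. Of the peptidases 60% passed and 50% were lower, against 63.5% and 37.9% of all genes tested. CTSC, cathepsin C or dipeptidyl peptidase I, which activates serine proteases of immune granules, annotated on chromosome 11 from 88026760 to 88070941 (hg19), had levels of 99.9, 99.9 and 90.7 FPKM in control and 186, 189 and 193 FPKM in knockdown libraries. All knockdown libraries stood far above all controls, and the log2 change was 0.96 (SE 0.049; limma adjusted p = 2.47e-06). CTSS, cathepsin S, a cysteine protease best known for trimming the invariant chain in antigen-presenting cells, annotated on chromosome 1 from 150702672 to 150738433 (hg19), had levels of 2.86, 3.21 and 3.28 FPKM in control and 0.856, 0.668 and 0.755 FPKM in knockdown libraries. The groups did not overlap, and the log2 change was -1.23 (SE 0.098; limma adjusted p = 1.97e-05), or -1.91 with a pseudocount of 0.1, since the gene was low. On the depth estimate, which is rough, and the longest annotated transcript these values stand for about 81.3 to 97.9 fragments per control library. The same reading gives 19.2 to 25.2 per knockdown library.

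TPP1, a tripeptidyl peptidase lost in a childhood storage disease of neurons, stood at 21.6, 21 and 24.8 FPKM in control and 15.6, 14.8 and 16.2 FPKM in knockdown libraries, a log2 change of -0.5 with no overlap between groups. CTSL1 (cathepsin L), LGMN (legumain, an asparaginyl endopeptidase that processes cathepsins) and CTSH (an aminopeptidase) fell by less, with log2 changes of -0.33, -0.26 and -0.21. The CTSH call was lost after median scaling (limma adjusted p = 0.102) and without control replicate 2 (0.0512) or 3 (0.0616) or knockdown replicate 2 (0.0666) or 3 (0.0669). Over the 15 alternatives the CTSH adjusted p lay between 0.00629 and 0.102. CTSD, the aspartic cathepsin and the most abundant peptidase of the set, stood at 302, 291 and 284 FPKM in control and 307, 302 and 298 FPKM in knockdown libraries. These values overlapped, and the 95% interval of the CTSD log2 change started at -0.04 and ended at 0.14. After median scaling the CTSD change became 0.14 with a limma adjusted p = 0.0271. CTSB, a cysteine protease, CTSZ, a carboxypeptidase, and CTSA, the protective protein that stabilises NEU1 and GLB1, had log2 changes of 0.03, 0.01 and -0.03. None of these 3 passed, and CTSA passed only after quantile normalization, at -0.11 (limma adjusted p = 0.0453).

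CTSS and CD68 are also used as macrophage genes, so macrophage markers are given beside them. Of 16 such markers 10 were listed in any library. The macrophage markers summed to 11.3 to 11.6 FPKM in control and 4.78 to 5.31 FPKM in knockdown libraries. Only 4 of them reached the filter of 0.5 FPKM and were tested (LAPTM5, CD14, CSF1R and MARCO). All 4 were called lower, against 37.9% of all genes tested. LAPTM5 and MARCO, with knockdown means of 0.21 and 0.343 FPKM, reached the filter only through the control libraries. The defining leukocyte gene PTPRC stood at 0.146 to 0.309 FPKM over the 6 libraries, and TYROBP, AIF1, C1QA, C1QB and C1QC were listed in none of them. Low markers of other cell types also fell. Endothelial markers summed to 6.69 to 7.92 FPKM in control and 4.06 to 4.25 FPKM in knockdown libraries, with 2 of 2 tested lower. For alveolar type 2 markers the sums were 10.2 to 11 and 5.38 to 6.6 FPKM, with 2 of 3 tested lower. Among fibroblast markers 1 was tested, with 0 lower and 0 higher. Both groups were A549, an established line, and the labels name no other cells. The cause of the lower levels of these genes was not tested.

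**Figure D2:**
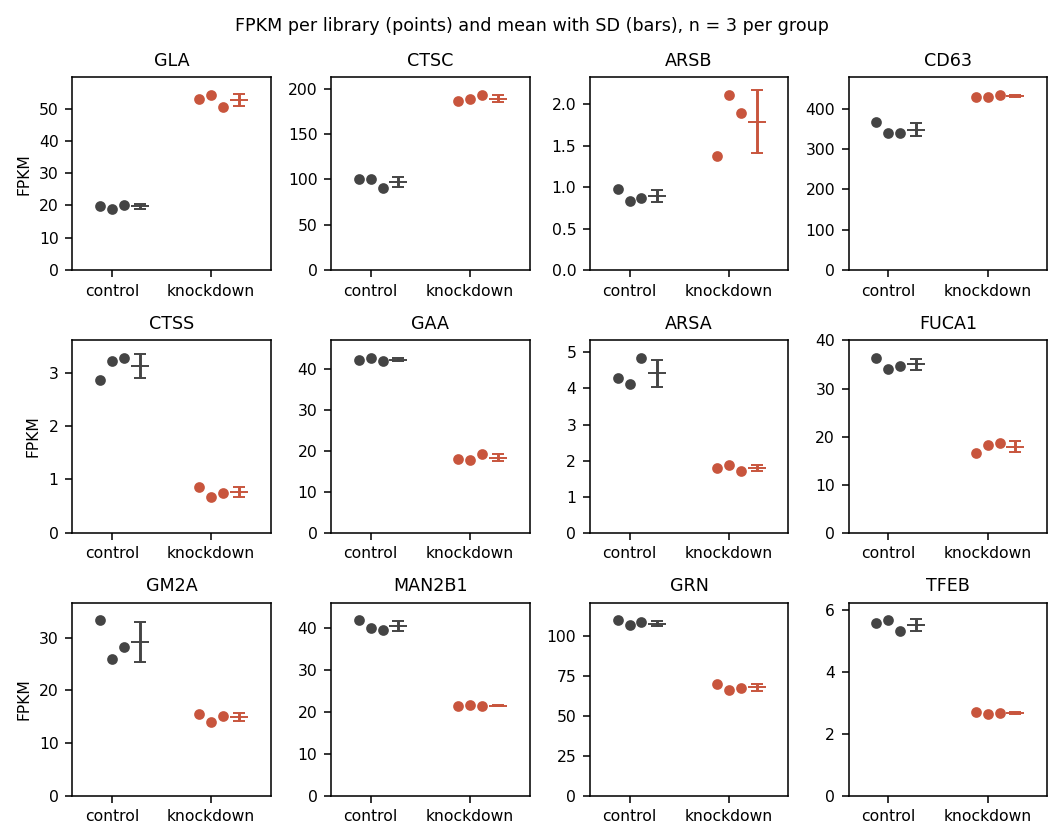
FPKM (y axis, from 0) of 12 lysosomal genes in each library; points are libraries, horizontal bars with whiskers are the mean and SD over n = 3, control in grey and knockdown in red. The 12 genes were picked from the 32 that passed the test, so the groups do not overlap in any of them. Over all genes tested the groups do not overlap in 69.1%. GLA, CTSC, ARSB and CD63 are higher in knockdown libraries and the other 8 lower.

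Among the 16 glycosidases and sulfatases 11 fell, 2 rose and 3 did not pass, with a median log2 change of -0.57. Thus 81.2% passed and 68.8% were lower, against 63.5% and 37.9% of all genes tested. GAA, acid alpha-glucosidase, which degrades lysosomal glycogen and is deficient in Pompe disease, annotated on chromosome 17 from 78075355 to 78093679 (hg19), had levels of 42.2, 42.8 and 42.1 FPKM in control and 18.1, 17.8 and 19.3 FPKM in knockdown libraries. The log2 change of GAA was -1.16 (SE 0.05; limma adjusted p = 1.17e-06), and every knockdown value was below 20 FPKM. Its promoter stretch printed above holds 2 of the palindromes.

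ARSA, arylsulfatase A, which removes sulfate from sulfatide, stood at 4.28, 4.13 and 4.85 FPKM in control and 1.79, 1.88 and 1.72 FPKM in knockdown libraries. FUCA1, the alpha-fucosidase of glycoprotein breakdown, stood at 36.4, 34 and 34.7 FPKM in control and 16.6, 18.3 and 18.7 FPKM in knockdown libraries. MAN2B1, the alpha-mannosidase that trims N-glycans, stood at 41.9, 40 and 39.7 FPKM in control and 21.4, 21.6 and 21.4 FPKM in knockdown libraries. In these 3 genes the knockdown libraries lay close together and well below the controls, with log2 changes of -0.95, -0.93 and -0.89 (limma adjusted p = 4.37e-05, 7.3e-06 and 3.02e-06). IDUA, alpha-iduronidase of heparan and dermatan sulfate breakdown, stood at 2.2, 3.23 and 3.3 FPKM in control and 1.24, 1.13 and 1.2 FPKM in knockdown libraries. Control replicate 1 was the lowest IDUA control and still above every knockdown library; the log2 change was -0.82, or -0.54 after quantile normalization. IDUA overlaps SLC26A1 over 6440 bases, and without a stated strand setting reads of overlapping genes cannot be told apart.

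The next 5 fell by -0.56 to -0.64 on the log2 scale. GUSB, beta-glucuronidase, stood at 21.4, 18.1 and 19.6 FPKM in control and 11.7, 12 and 13.1 FPKM in knockdown libraries. GLB1, the beta-galactosidase of ganglioside GM1 and keratan sulfate, stood at 30.9, 28 and 28.6 FPKM in control and 19.1, 17.6 and 18.5 FPKM in knockdown libraries. TMPPE, which overlaps GLB1 over 6386 bases, was low and passed in the opposite direction with a log2 change of 0.32. NAGLU, an exoglycosidase of heparan sulfate, stood at 5.39, 5.55 and 5.1 FPKM in control and 3.11, 3.7 and 2.99 FPKM in knockdown libraries. The NAGLU change of -0.58 became -0.35 after quantile normalization. NEU1, the sialidase that works in a complex with CTSA and GLB1, stood at 23.5, 24.7 and 23.6 FPKM in control and 15.4, 15.3 and 16.8 FPKM in knockdown libraries. NEU1 lies in the major histocompatibility region and was summed over 8 rows of reference and alternative haplotype loci. With reference chromosomes only the NEU1 change of -0.57 became -0.48 (limma adjusted p = 0.00164), short of the 0.5 used to count larger falls. HEXA, the alpha subunit of hexosaminidase A, stood at 36.2, 31.1 and 36.9 FPKM in control and 24.6, 22.3 and 22.6 FPKM in knockdown libraries. In all 5 the groups did not overlap. SGSH, the sulfamidase of heparan sulfate, was lower by a smaller step, with a log2 change of -0.44.

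GLA and ARSB rose. GLA, alpha-galactosidase A, which removes terminal galactose from globotriaosylceramide and is deficient in Fabry disease, annotated on chromosome X from 100652779 to 100663001 (hg19), had levels of 19.9, 18.8 and 20.3 FPKM in control and 53, 54.2 and 50.6 FPKM in knockdown libraries. This was the largest rise of the 46 genes, with a log2 change of 1.38 (SE 0.052; limma adjusted p = 9.1e-07). The whole GLA locus, 10223 bases, lies within the read-through locus RPL36A-HNRNPH2, which stood at 14.6, 11.7 and 7.98 FPKM in control and 18.9, 11.3 and 8.53 FPKM in knockdown libraries and did not pass (log2 change 0.13). In the authors' deposited table GLA has a log2 fold change of 1.52 with p = 0.314 and a false discovery rate of 0.522. ARSB, the sulfatase of dermatan sulfate, stood at 0.979, 0.834 and 0.865 FPKM in control and 1.38, 2.11 and 1.89 FPKM in knockdown libraries. Knockdown replicate 1 was the lowest of its group and still above the controls. At this low level the log2 change of ARSB depended on the setting, at 0.55 as tested, 0.91 with a pseudocount of 0.1 and 0.84 after quantile normalization. IDS, iduronate 2-sulfatase and the most abundant of this class, stood at 84, 89.9 and 83.3 FPKM in control and 85.8, 90.2 and 91.1 FPKM in knockdown libraries, which overlapped. IDS passed only after median scaling, at 0.14 (limma adjusted p = 0.0296). GALNS, a sulfatase of keratan sulfate, and MANBA, beta-mannosidase, did not pass either, at 0.04 and -0.21, and MANBA passed without knockdown replicate 1 (-0.32, limma adjusted p = 0.0439).

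Of the 8 genes of lipid hydrolysis and transfer 6 fell, 0 rose and 2 did not pass, with a median log2 change of -0.5. The share lower was 75%, against 37.9% of all genes tested. PSAP, prosaposin, the precursor of the saposins that present sphingolipids to their hydrolases, annotated on chromosome 10 from 73576055 to 73611082 (hg19), was the most abundant of the 46 transcripts in the control libraries, at 536, 515 and 542 FPKM, against 376, 365 and 374 FPKM in knockdown libraries. NPC2, the soluble cholesterol-binding protein, stood at 430, 422 and 421 FPKM in control and 297, 289 and 318 FPKM in knockdown libraries. Both groups were tight, with log2 changes of -0.51 for PSAP and -0.49 for NPC2 (SE 0.037 and 0.044; limma adjusted p = 1.16e-05 and 3.44e-05). NPC1, the membrane protein to which NPC2 hands cholesterol, stood at 11.5, 10.8 and 10.2 FPKM in control and 8.12, 7.18 and 6.48 FPKM in knockdown libraries, a log2 change of -0.52.

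GM2A, the activator that lifts ganglioside GM2 out of the membrane for hexosaminidase A, stood at 33.3, 26 and 28.3 FPKM in control and 15.5, 14 and 15.1 FPKM in knockdown libraries. Its log2 change of -0.92 (SE 0.09; limma adjusted p = 5.48e-05) was the furthest fall of the class, and control replicate 1 stood above the other controls. SMPD1, acid sphingomyelinase, stood at 5.93, 5.77 and 4.58 FPKM in control and 3.36, 2.84 and 3.04 FPKM in knockdown libraries. The change of SMPD1 was -0.65, or -0.42 after quantile normalization. LIPA, lysosomal acid lipase, fell by 0.14, a call lost after median scaling (limma adjusted p = 0.351) and without knockdown replicate 1 (0.0834) or 2 (0.0601), with a range of 0.00657 to 0.351 over the 15 alternatives. PPT1, a thioesterase that removes palmitate from proteins, and ASAH1, acid ceramidase, did not pass, with log2 changes of 0.01 and 0.1.

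**Figure D3:**
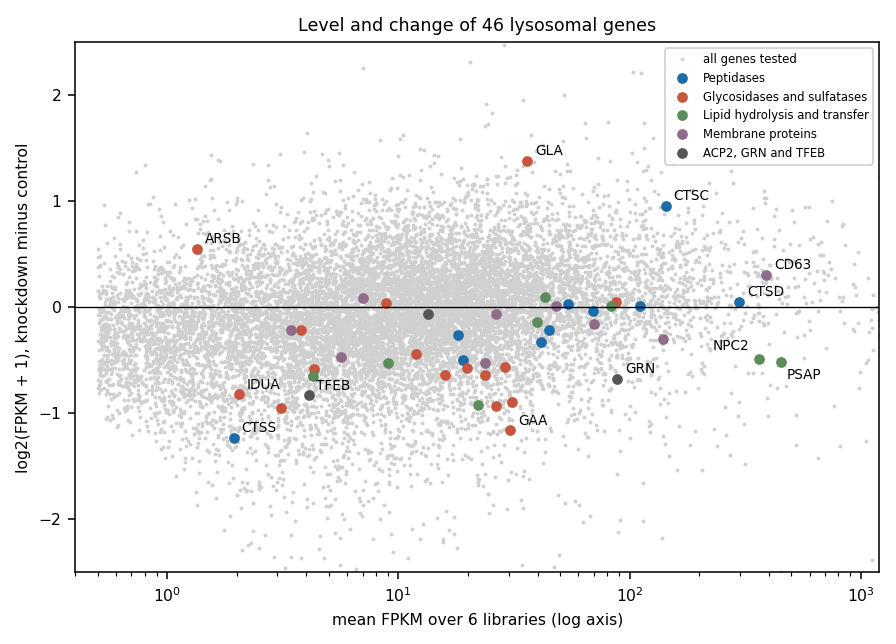
Mean FPKM over the 6 libraries (x axis, log scale) against log2 change on the log2(FPKM + 1) scale (y axis) for all genes tested (grey) and the 46 lysosomal genes (coloured by role); 149 genes beyond 2.5 on the log2 scale or above 1200 FPKM lie outside the axes. Lysosomal genes lie at low and high levels, from group means of 0.892 FPKM (ARSB, control) to 531 FPKM (PSAP, control), and the 4 most abundant, PSAP, NPC2, CD63 and CTSD, did not move in 1 direction.

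The 9 membrane proteins were divided, with 4 lower, 1 higher and 4 that did not pass, and a median log2 change of -0.16. In this class 55.6% passed and 44.4% were lower, near the 63.5% and 37.9% of all genes tested. CD63, a tetraspanin of late endosomes and secreted vesicles, annotated on chromosome 12 from 56119230 to 56122910 (hg19), had levels of 367, 339 and 339 FPKM in control and 430, 430 and 434 FPKM in knockdown libraries. Its log2 change was 0.31 (SE 0.042; limma adjusted p = 0.000335), or 0.2 after quantile normalization. The order of the most abundant transcripts changed accordingly. PSAP and NPC2 stood above CD63 in every control library, and CD63 stood above both, and above CTSD, in every knockdown library. CTSD and NPC2, at 298 to 307 and 289 to 318 FPKM, overlapped in the knockdown libraries.

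SCARB2, the membrane protein that carries glucocerebrosidase to the lysosome, stood at 26.8, 28.4 and 29 FPKM in control and 19, 18.3 and 20.5 FPKM in knockdown libraries. The groups did not overlap, and the log2 change of SCARB2 was -0.52 (SE 0.061; limma adjusted p = 0.00014). HGSNAT, an acetyltransferase of heparan sulfate breakdown, changed by -0.47, or by -0.29 after quantile normalization, and the structural glycoprotein LAMP1 by -0.3. LAMP2, the partner of LAMP1, stood at 40.9, 51.2 and 51.3 FPKM in control and 46.2, 47.1 and 50.1 FPKM in knockdown libraries. Control replicate 1 was the lowest LAMP2 library and replicates 2 and 3 the highest, so the groups overlapped, and the 95% interval of the log2 change ran from -0.2 to 0.21. The scavenger-receptor-like glycoprotein CD68 changed by -0.16. The CD68 call held in 9 of 15 alternatives and was lost with median scaling (limma adjusted p = 0.327), with eBayes without a trend (0.0629), and without control replicate 3 (limma adjusted p = 0.0572) or knockdown replicate 1 (0.0852), 2 (0.0599) or 3 (0.0736). Over these alternatives the CD68 adjusted p lay between 0.00479 and 0.327. CLN3, a membrane protein mutated in juvenile Batten disease, MCOLN1, a cation channel that releases lysosomal calcium, and CTNS, the cystine exporter, did not pass, with log2 changes of -0.06, 0.09 and -0.21.

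Of the remaining 3 genes TFEB and GRN fell. TFEB, a transcription factor that activates lysosomal genes, annotated on chromosome 6 from 41651716 to 41703997 (hg19), had levels of 5.57, 5.65 and 5.3 FPKM in control and 2.7, 2.63 and 2.67 FPKM in knockdown libraries. The TFEB knockdown values were nearly identical, and the log2 change was -0.83 (SE 0.075; limma adjusted p = 3.6e-05). GRN, progranulin, a secreted and lysosomal protein that is cut into granulins, stood at 110, 107 and 109 FPKM in control and 70.3, 66.2 and 67.5 FPKM in knockdown libraries. The groups lay far apart, with a log2 change of -0.67 for GRN (SE 0.042; limma adjusted p = 6.08e-06). ACP2, lysosomal acid phosphatase, stood at 13.3, 14.3 and 13.7 FPKM in control and 13.2, 13.9 and 12.5 FPKM in knockdown libraries, and did not pass. It overlaps NR1H3, which fell by 0.52 on the log2 scale, over 607 bases.

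The relatives of TFEB did not pass the test. TFE3 stood at 18.4, 15.6 and 16.1 FPKM in control and 12.8, 15.4 and 14.5 FPKM in knockdown libraries (log2 change -0.22, limma adjusted p = 0.0557). MITF stood at 10.6, 10.5 and 9.74 FPKM in control and 10.4, 11.9 and 12.6 FPKM in knockdown libraries (log2 change 0.16, limma adjusted p = 0.117). In the list of TFE factors and the mTORC1 machinery that holds them in the cytoplasm, 1 of 23 tested genes was higher and 5 lower, against 25.6% higher and 37.9% lower of all genes tested, so that fewer passed than the background share. The median log2 change was -0.12. MTOR, the kinase, was 1.6-fold higher, at 13.2, 11 and 11.4 FPKM in control and 18.8, 19.5 and 18.7 FPKM in knockdown libraries. TSC2, RRAGC and LAMTOR2, which restrain or anchor the kinase, changed by -0.33, -0.24 and -0.18. RRAGD, a Rag GTPase, is named outside the naming rule because of its size of change. It stood at 4.07, 5.94 and 4.82 FPKM in control and 0.559, 0.52 and 0.745 FPKM in knockdown libraries. The log2 change of RRAGD was -1.88 (SE 0.132; limma adjusted p = 1.04e-05). The counts of this list depended on scaling: 6 higher and 3 lower after median scaling, 5 higher and 3 lower after quantile normalization. Without control replicate 1 it had 3 higher, and without control replicate 2 or knockdown replicate 1 it had 2.

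Lysosomal genes outside the 46 were read from a separate list, also chosen with earlier results of these data known. Of 46 tested 25 were lower and 6 higher, against 37.9% lower and 25.6% higher of all genes tested. Their median log2 change was -0.25, against -0.087. CTSF, a cysteine cathepsin, stood at 36.2, 36.2 and 39.7 FPKM in control and 14.7, 14.5 and 14.6 FPKM in knockdown libraries (log2 change -1.29). SLC17A5, the sialic acid exporter, and ABCA2, a lipid transporter of the endolysosomal membrane, changed by -0.96 and -0.89. CLN6, an endoplasmic reticulum protein needed to export lysosomal enzymes, went the other way, from 17.5, 16.4 and 16.8 FPKM to 32.9, 34.2 and 30.9 FPKM (log2 change 0.91).

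Subunits of the V-ATPase, the proton pump that acidifies the lysosome, were called about as often as all genes tested: of 24 tested, 9 were lower and 6 higher, near the 37.9% and 25.6% of all genes, and the median log2 change was -0.05. After median scaling 10 were higher. TCIRG1, an isoform of the membrane subunit a, stood at 42.8, 44.3 and 41.9 FPKM in control and 25.7, 25.1 and 25.4 FPKM in knockdown libraries (log2 change -0.74), and ATP6V1H changed by -0.62. ATP6V1C2 and ATP6V1D each rose by 0.38. Genes of mannose 6-phosphate tagging and sorting were called higher in 6 and lower in 6 of 20, again near the shares of all genes; 3 were lower after median scaling and 3 without knockdown replicate 2. GNPTG, the gamma subunit of the tagging enzyme, stood at 13.6, 16.1 and 15.4 FPKM in control and 7.39, 6.02 and 7.48 FPKM in knockdown libraries (log2 change -1.01). The receptors moved apart. M6PR, the small mannose 6-phosphate receptor, changed by 0.47 and IGF2R, the large receptor, by -0.38.

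**Figure D4:**
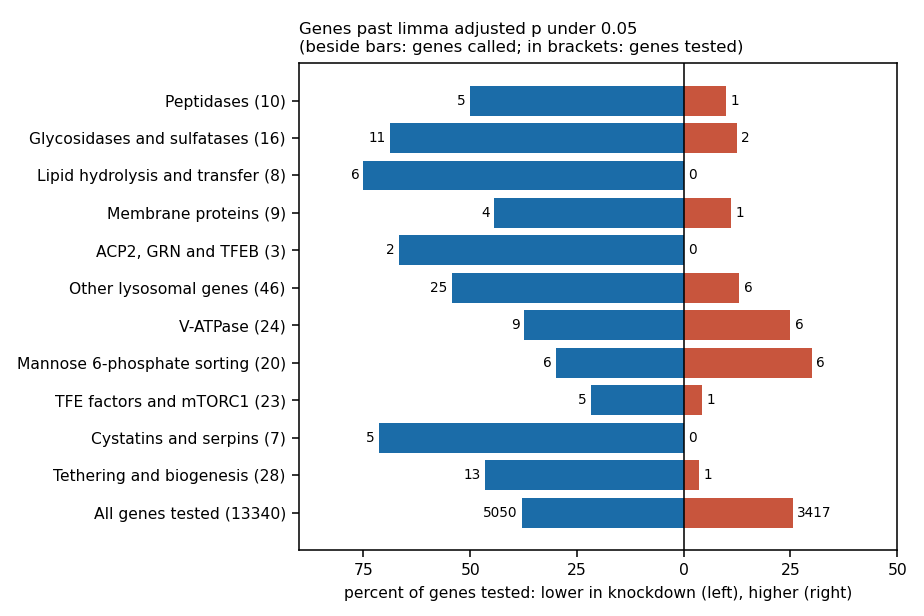
Percent of tested genes past the limma threshold in each class of the 46 genes, in each further pathway list and over all genes tested, lower in knockdown to the left and higher to the right; the numbers beside the bars are gene counts and those in brackets the genes tested. Lipid genes (6 of 8) and glycosidases and sulfatases (11 of 16) have the longest bars to the left among the classes of the 46 with more than 3 genes.

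The authors' deposited table, which gives 1 value per group and its own test, lists 44 of the 46 genes. At a false discovery rate under 0.05 it calls 2 of them higher and 7 lower. Of its 12275 entries 22.1% are called, 10.9% higher and 11.2% lower. The share of lysosomal genes called in either direction was near that of all entries. In the authors' deposited table the log2 fold change is 1.06 for CTSC, 1.12 for ARSB, -1.94 for CTSS, -1.17 for ARSA, -1.06 for GAA, -0.87 for FUCA1 and GM2A, -0.78 for MAN2B1 and -0.9 for TFEB. Of the 28 genes lower by limma, 7 are called lower there, and of the 4 higher, 2 are called higher. The genes it does not list, CTSL1 and NEU1, are among the 28 and could not be called there.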

How the data were processed

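RNA was measured in 3 control and 3 FOXD3 knockdown libraries of A549 cells. Per the file headers, the authors deposited FPKM values for each library, and a comparison table with group FPKM values, a log2 fold change, p-values and false discovery rates. The submitters' processing notes name TopHat2 2.0.12, Bowtie, Cufflinks 2.0.2 and Cuffdiff as tools and hg19 as build. For the strand setting and the gene annotation, nothing is given in the sources used here. The files hold no counts. FPKM was summed over the rows of a symbol, and a symbol that a library does not list was set to 0. Coordinates on hg19 come from the files.

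Testing was limited to genes averaging 0.5 FPKM or more over the 6 libraries. It was done on log2(FPKM + 1), which understates the change of low genes, with limma 3.58.1 in R 4.3.3 (two-sided; eBayes with intensity trend; Benjamini-Hochberg adjustment). The 46 genes and all lists were chosen with earlier results of these data known. Sample values are printed for genes past the threshold with a log2 change of at least 0.5, the most abundant gene of each class and TFEB. Of the other lists the rule names up to 4 called genes with the largest change and at least 5 FPKM in the higher group; several are given by their log2 change alone, and 1 is not reported here. NPC2, LAMP2, ACP2, TFE3, MITF, RRAGD and CST6 fall outside this rule and were chosen after their values had been seen. Depth was estimated from the FPKM of single fragments in single-exon genes of at least 1200 bases (lengths from GENCODE 29), as the median of 12 to 22 values between 0.1 and 0.19 FPKM times kilobases, a window set after the values were seen. This window bounds the estimate in advance, so it gives no more than an order of magnitude. In data simulated for this comparison over 13340 genes, the share of altered genes found was 16% at a log2 change of 0.25, 66% at 0.5, 96% at 1 and 98% at 2, with 7.38% of calls false. Only 50 genes were altered at each size, whereas 63.5% of genes tested were called in the real comparison. The simulated shares therefore do not carry over to it.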

Additional observations from a re-analysis of the deposited data

How the results depend on the processing

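No paired analysis was possible because the labels give no replicate numbers; the numbers used here follow accession order, name a library and pair none. Of the 32 lysosomal genes called, 29 (25 lower, 4 higher) kept their call in each of 15 alternatives that tested them; CTSH, LIPA and CD68 did not, and of the 14 not called CTSA, CTSD, IDS and MANBA passed in 1 alternative each. None of the 46 changes reversed with a call. Leaving out 1 library gave 25 to 28 lower and 4 higher lysosomal genes, the fewest without knockdown replicate 2, in which small nucleolar RNAs held 4.83% of FPKM against 0.975% to 1.92% elsewhere. With a filter at 5 FPKM 37 lysosomal genes were tested, 22 lower and 3 higher. Of the 9170 genes tested at this filter 3295 (35.9%) were lower and 2967 higher. After median scaling the V-ATPase list had 10 higher, mannose 6-phosphate sorting 3 lower, the TFE and mTORC1 list 6 higher and 3 lower, and tethering 3 higher; after quantile normalization the TFE and mTORC1 list had 5 higher and 3 lower and tethering 3 higher. At the 5 FPKM filter cystatins had 3 lower and tethering 2 higher. Leaving out 1 library gave 3 to 7 lower for mannose 6-phosphate sorting, 1 to 3 higher for the TFE and mTORC1 list, 0 to 1 higher and 3 to 5 lower for cystatins, and 0 to 3 higher for tethering. The causes were not tested. FOXD3 kept its direction, with differences of -0.196 to -0.118 FPKM. Genes under 5 FPKM, such as CTSS, IDUA, ARSA and ARSB, rest on few fragments, which limits the precision of their changes.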

Other observations

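Inhibitors of the cathepsins and the proteins of lysosome tethering and biogenesis were read from their own lists. Of 12 cystatins and cathepsin-inhibiting serpins 7 were tested and 5 were lower, with 0 higher, against 37.9% lower and 25.6% higher of all genes tested; without control replicate 3 or knockdown replicate 2 the lower count was 3. CSTB, the cytosolic cystatin B, stood at 581, 510 and 545 FPKM in control and 317, 322 and 327 FPKM in knockdown libraries (log2 change -0.76, limma adjusted p = 8.42e-06). SERPINB1, an inhibitor of neutrophil proteases, stood at 128, 131 and 144 FPKM in control and 63.9, 65.2 and 63.7 FPKM in knockdown libraries (log2 change -1.05). CST3, the secreted cystatin C, changed by -0.31. CST6, a further secreted cystatin, did not pass (log2 change 0.15).

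Of 28 genes of lysosome tethering and biogenesis 13 were lower and 1 higher, against the same shares of all genes, with a median log2 change of -0.13. VPS39 and VPS11, subunits of the HOPS tethering complex, changed by -0.66 and -0.55, and HPS4, of a complex for lysosome-related organelles, by -0.41.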
